A study of Mus musculus with 31 samples.

Results

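The 9 genes described here store iron, carry it across membranes, break down heme or bind free hemoglobin: Fth1, Ftl1, Ncoa4, Tfrc, Slc11a2, Slc11a1, Slc40a1, Hmox1 and Hp. They were picked by symbol, and all 9 were found among the 47069 gene rows of the deposited tables. The cells were 31 single cells from the right lung lobes of Csf1r-GFP mice, a reporter strain in which a Csf1r promoter drives green fluorescent protein. The mice were adults of 10 weeks, and the lungs were taken on day 7 after a sham operation in which the chest was opened. All cells were sorted as CD45+, GFP+ and F4/80+ macrophages (a Ly6G term in the sort label carries no sign), captured on a Fluidigm C1 chip and sequenced singly. There was 1 group, no unoperated mouse is used here, and no label ties a cell to an animal, so the 31 cells count as 1 sample and no test was made.

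Macrophages take up iron bound to transferrin through the transferrin receptor, and a large load of heme when they engulf red blood cells. Iron that is not used is kept inside ferritin, a hollow shell built of heavy and light chains, or leaves the cell through ferroportin. When cytosolic iron is scarce, iron regulatory proteins bind a short hairpin in certain mRNAs, the iron-responsive element, which blocks translation when it lies before the coding sequence and protects the mRNA when it lies behind it. The level of a ferritin mRNA is therefore not a measure of the amount of ferritin protein.

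Hairpins of this form are shown because several of the 9 mRNAs are known to be controlled through them. Matches to a strict pattern were searched in the untranslated regions of protein-coding GENCODE M21 transcripts (GRCm38) as a bulged C, 5 bases, the 6-base loop CAGTGN with N not G, and 5 bases that pair with the first 5. Each line gives the 29 bases of a match, 5′ to 3′ on the mRNA strand, with the loop in capitals.
Fth1, 5′ untranslated region: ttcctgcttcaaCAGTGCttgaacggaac
Ftl1, 5′ untranslated region: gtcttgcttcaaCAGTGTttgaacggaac
Slc40a1, 5′ untranslated region: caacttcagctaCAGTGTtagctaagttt
Tfrc, 3′ untranslated region, a: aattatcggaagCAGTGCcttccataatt
Tfrc, 3′ untranslated region, b: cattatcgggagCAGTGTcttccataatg
Tfrc, 3′ untranslated region, c: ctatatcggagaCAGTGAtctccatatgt
Tfrc, 3′ untranslated region, d: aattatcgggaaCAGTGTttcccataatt
These lie at chr19:9982732-9982760 on the plus strand (Fth1), chr7:45459779-45459807 on the minus strand (Ftl1) and chr1:45925465-45925493 on the minus strand (Slc40a1). The matches of Tfrc, all on the plus strand, lie at chr16:32631219-32631247, chr16:32631598-32631626, chr16:32631663-32631691 and chr16:32631710-32631738. The untranslated regions of Ncoa4, Slc11a2, Slc11a1, Hmox1 and Hp held no match to these letters. The pattern does not find every such element: an isoform of Slc11a2 is known to carry an iron-responsive element in its 3′ untranslated region. Of 21901 genes searched in the same way, 0.10% had a match in a 5′ and 0.452% in a 3′ untranslated region. A match is a description of the letters; binding was not measured in these cells.

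Levels are given in FPKM, fragments per kilobase of transcript and per fixed number of mapped fragments, which is a scale per length, so levels of different genes can be set side by side within a cell. A gene was called present where it reached 1 FPKM. Total expected counts were 120835 to 4059830 per cell, with a median of 1072990. In 10 libraries only 32.8% to 61.6% of the counts fell on protein-coding genes, against 87.4% to 95.6% in the 20 cells with Lyz2, a lysozyme gene of myeloid cells, at 1000 FPKM or more. These 20 cells are called Lyz2-high below, and the results are given for them and for all 31. The nearest cells on either side of that limit had 552.82 FPKM (cell D10) and 1228.8 FPKM (cell C7). The other 11 cells were those 10 libraries and cell F11, which had 87.9% coding counts, Lyz2 at 0 FPKM and the antigen-presentation gene H2-Aa at 11206 FPKM. All 8 general myeloid markers were present among the Lyz2-high cells, with Csf1r in 20 of 20 and Adgre1, the gene of F4/80, in 15 of 20. In the 10 low-coding libraries Lyz2 was present in 8, Csf1r in 7, Tyrobp in 4, Adgre1 in 1 and Itgam in 0. Levels of Csf1r overlapped. They ran from 1.71 to 855 FPKM in the Lyz2-high cells and from 0 to 273 FPKM in the 10 libraries, with medians of 103 and 3.365 FPKM. Of the 8 general myeloid markers, 2 were in at least 50% of these libraries, against 8 in the Lyz2-high cells. The sort label thus has less marker support in the low-coding libraries. Of 8 alveolar macrophage markers only Ear2 was present in a Lyz2-high cell, in 3 cells, and the summed level of the 8 markers reached 4258 FPKM.

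The 2 ferritin genes stood far above the other members. Each of the 9 genes was present in at least 1 Lyz2-high cell, as were 23% of all gene rows. In at least 50% of the Lyz2-high cells, 3 of the 9 genes (Fth1, Ftl1 and Hp) were present, against 3.04% of all rows. In every Lyz2-high cell, 2 of the 9 (Fth1 and Ftl1) were present, against 0.304% of all rows. Over all 31 cells, 2 of the 9 were present in at least 50% of cells, against 2.54% of all rows. The genes were chosen with these tables already known, so these shares describe the members and are not support for anything. A Lyz2-high cell held 2 of the 9 genes in 3 cases, 3 in 7, 4 in 5 and 5 in 5, and no cell held more.

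**Figure D1:**
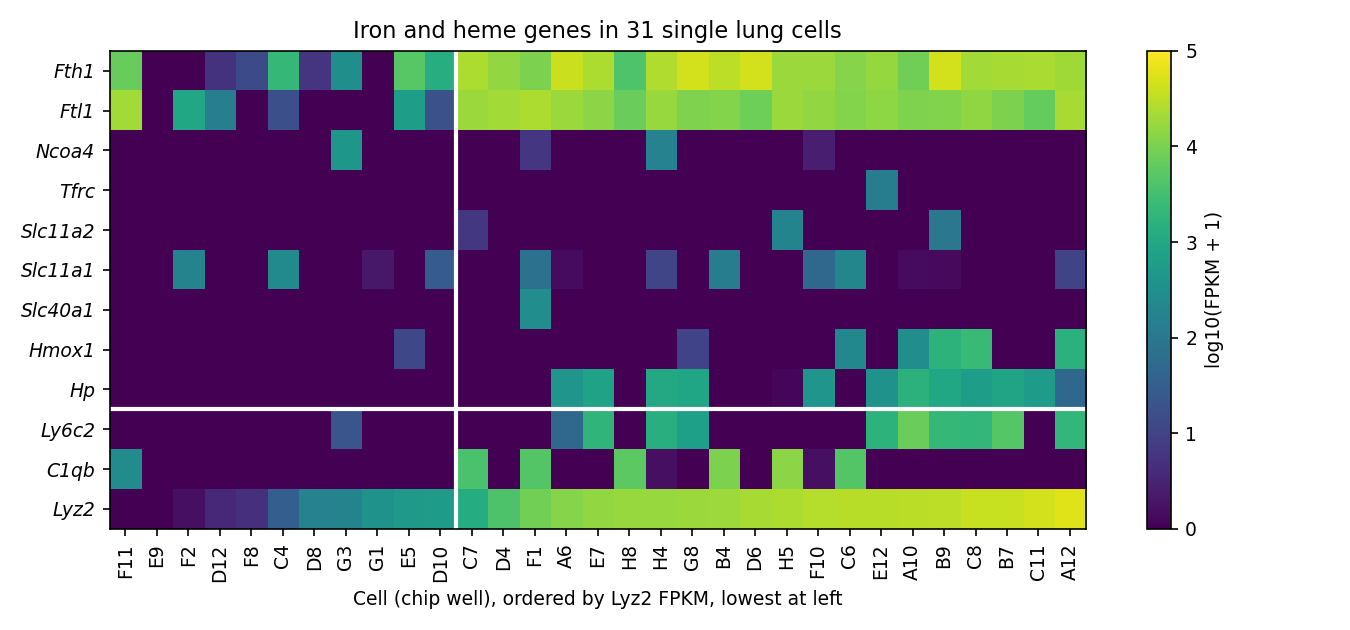
Level of each of the 9 genes (rows, with Ly6c2, C1qb and Lyz2 for orientation) in each of the 31 cells (columns, ordered by Lyz2 FPKM) as log10(FPKM + 1). Fth1 and Ftl1 are high in all 20 Lyz2-high cells, Hp in 12 of them, and the remaining genes appear in single cells or small numbers of cells.

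Fth1 (ENSMUSG00000024661, chr19:9980598-9985098, plus strand) encodes the ferritin heavy chain, whose ferroxidase site oxidises iron for storage. Of the 31 cells, 28 had it (90.3%; 95% interval 74.2% to 98.0% by the exact method of Clopper and Pearson), and so did 20 of the 20 Lyz2-high cells (interval 83.2% to 100%). All such intervals cover counting error over cells only. At a limit of 10 expected counts, 80.6% of the 31 cells had Fth1. In the Lyz2-high cells its level ran from 4175 FPKM (cell H8) through a median of 20835 to 45419 FPKM (cell D6). Cells G8 and B9, with 44907 and 44793 FPKM, lay close to the highest. By mean level Fth1 ranked 4 among all gene rows in these cells.

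Ftl1 (ENSMUSG00000050708, chr7:45457944-45459884, minus strand) encodes the ferritin light chain, which has no ferroxidase site and helps to form the mineral core. Cells with Ftl1 numbered 26 of 31 (83.9%, interval 66.3% to 94.5%), among them 20 of 20 Lyz2-high cells. Its level in the Lyz2-high cells ran from 6477 FPKM (cell C11) through a median of 13710.4 to 24393 FPKM (cell F1), and by mean level it ranked 7. The spread of Ftl1 was narrower than that of Fth1, and the cells at the extremes were different ones for each gene.

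Together the ferritin genes took 1.12% to 5.95% of a Lyz2-high cell's FPKM, with a median of 3.37%, and 0.827% to 4.13% of its expected counts. The lowest sum was 11349 FPKM, in cell H8, and the highest 57105 FPKM, in cell A6. Fth1 exceeded Ftl1 in 15 of the 20 cells. The ratio of Fth1 to Ftl1 ran from 0.420 in cell F1 to 5.82 in cell D6, with a median of 1.38, and cell H5 had nearly equal levels of 18018 and 18003 FPKM. Across the 20 cells the Spearman correlation of Fth1 with Ftl1 was -0.20, and that of each gene with the cell's total counts was -0.24 for Fth1 and 0.39 for Ftl1. These cells share 1 chip format and preparation and differ in depth, so the coefficients are descriptions only.

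**Figure D2:**
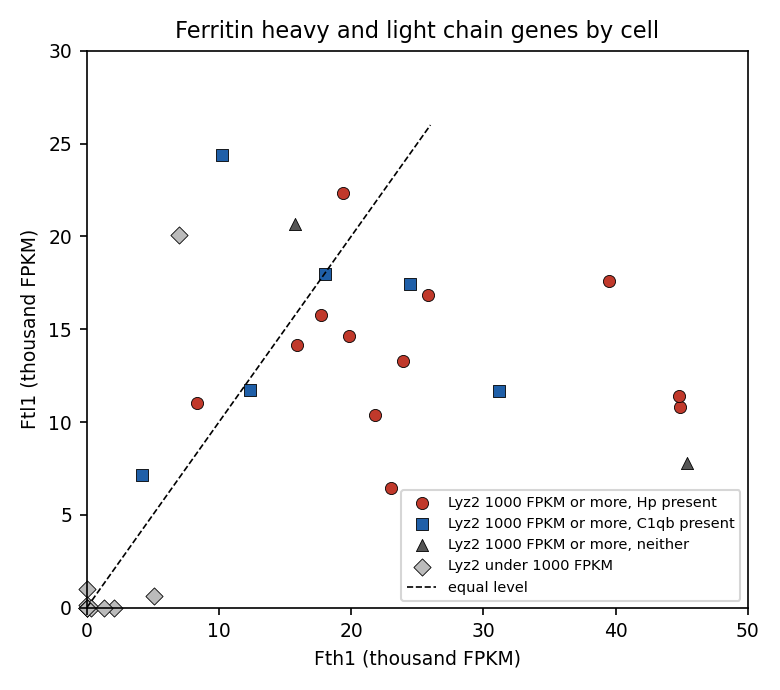
Ftl1 against Fth1 in units of 1000 FPKM, 1 point per cell, with the dashed line at equal levels. The 20 Lyz2-high cells spread from 4175 to 45419 FPKM of Fth1 with 15 below the line, while among the cells under 1000 FPKM of Lyz2 only F11 is high in both genes and E5 reaches 5092 FPKM of Fth1.

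In the 10 low-coding libraries Fth1 was present in 7 and Ftl1 in 5, with medians of 8.51 and 7.85 FPKM. Some of these calls rest on few counts. Fth1 had 1 expected count in D12, 1 in D8 and 2 in F8, and Ftl1 had 4 in C4 and 4 in D10. The highest values there were 5092 FPKM of Fth1 in cell E5 and 1002 FPKM of Ftl1 in cell F2, so that no low-coding library reached the Lyz2-high range for Ftl1, and E5 alone reached it for Fth1. Cell E9 had all 9 genes at 0. Cell F11 stood apart from the 10, with 7019 FPKM of Fth1 and 20089.8 FPKM of Ftl1, inside the Lyz2-high range for both. The share of coding counts moved with ferritin level across the 31 cells, and its part in the difference was not tested.

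Ferritin reads can be shared with near-identical copies, so the split made by the authors' counting is uncertain. Of 13 further ferritin-like rows, picked by symbols that start with Fth or Ftl, 10 were at 0 in every cell. Copies under other symbols were not examined. Ftl1-ps1 reached at most 28.3 FPKM in a Lyz2-high cell (F1), Ftl1-ps2 4.89 FPKM (G8) and Fth-ps2 1.28 FPKM (A10). In the low-coding cell D12 the order was the other way round: Ftl1-ps2 stood at 1117 FPKM, Fth-ps2 at 773 FPKM and Ftl1-ps1 at 594 FPKM, beside 135.59 FPKM of Ftl1 and 4.37 FPKM of Fth1. How those reads were assigned among the copies was not tested.

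Ncoa4 (ENSMUSG00000056234, chr14:32159865-32179855, plus strand) encodes the receptor that delivers ferritin to the lysosome for iron release. Among the Lyz2-high cells 3 of 20 had it (15%, interval 3.21% to 37.9%) at 162.18 FPKM in cell H4, 5.26 FPKM in cell F1 and 1.62 FPKM in cell F10, and at 432.72 FPKM in the low-coding cell G3. The other 27 cells were below 1 FPKM. All 3 Lyz2-high cells with Ncoa4 also had Slc11a1, which was present in 6 of the 20. The share of all rows present in these 3 cells was not counted. These 3 cells had 1837290 to 3526670 total counts, inside the range of 521492 to 4059830 of the 17 Lyz2-high cells without Ncoa4, with medians of 3183170 and 1387740. Cell G3, with the highest level, had 637270 counts. The part of depth was not tested.

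Tfrc (ENSMUSG00000022797, chr16:32608920-32632794, plus strand), the transferrin receptor, was present in 1 cell, E12, at 126.92 FPKM from 353 expected counts, and at 0 in the other 30. This is 5% of the Lyz2-high cells (interval 0.127% to 24.9%). Slc11a2 (ENSMUSG00000023030, chr15:100387898-100425072, minus strand), the divalent metal transporter that moves iron out of the endosome, was present in 3 Lyz2-high cells and in no other. It stood at 179.16 FPKM in cell H5, 94.60 FPKM in cell B9 and 5.52 FPKM in cell C7, and none of these had Tfrc. The libraries do not mark strand, and Slc11a2 overlaps Gm5475 on the opposite strand, which was present in cell D8 only.

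Slc11a1 (ENSMUSG00000026177, chr1:74375195-74386062, plus strand) encodes the metal transporter of the phagosome membrane of macrophages, often called Nramp1. It was present in 10 of 31 cells (32.3%, interval 16.7% to 51.4%) and in 6 of 20 Lyz2-high cells (30%, interval 11.9% to 54.3%). The 6 values were 193.75 FPKM in cell C6, 132.62 in B4, 71.67 in F1, 45.94 in F10, 10.13 in H4 and 9.72 in A12. All 6 cells had H2-Aa, which was present in 13 of the 20, but its level in them ran from 1.5 FPKM (cell H4) to 22625 FPKM (cell C6). The share of all rows present in these 6 cells was not counted. The upper 3 of these 6 had the complement gene C1qb and the lower 3 had Hp. The other 3 cells with C1qb were at 0, and the other 9 with Hp were below 1 FPKM, so levels overlapped between the cells with C1qb and those with Hp. Median total counts were 2269620 in the 6 cells and 1433690 in the other 14, and the part of depth was not tested.

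Unlike Hp, Slc11a1 was also found in libraries with few coding counts: 232.36 FPKM in cell C4, 168.98 in F2, 27.47 in D10 and 1.13 in G1. Cell C4 thus had the highest level of all 31 cells, and F2 lay below only C4 and C6. The value in C4 came from 27 expected counts, that in D10 from 2 and that in G1 from 1.

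Slc40a1 (ENSMUSG00000025993, chr1:45908068-45926523, minus strand) encodes ferroportin, the iron exporter of the plasma membrane. Transcripts were found in 1 of 31 cells, F1, at 278.31 FPKM from 2818 expected counts, and at 0 in the other 30. Cell F1 also had the highest Ftl1 level, the lowest ratio of Fth1 to Ftl1, C1qb at 4662 FPKM, Slc11a1 and Ncoa4. A single cell sets no range for ferroportin, and its interval over the Lyz2-high cells was 0.127% to 24.9%.

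**Figure D3:**
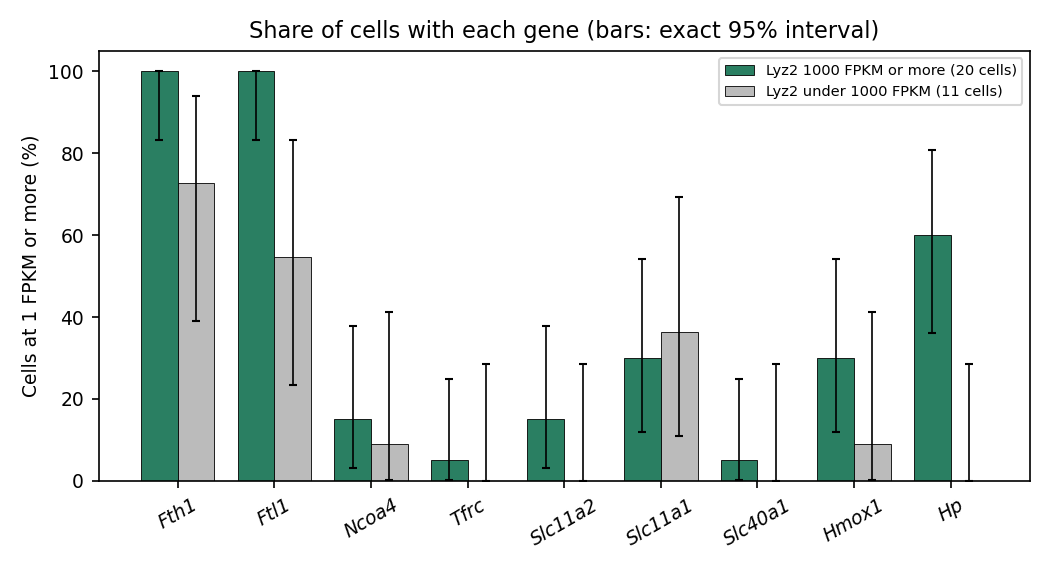
Share of cells with each of the 9 genes at 1 FPKM or more, for the 20 Lyz2-high cells and the 11 other cells, with exact 95% intervals for counting error. Fth1 and Ftl1 are at 100% in the Lyz2-high cells and Hp at 60.0%, while Hp, Tfrc, Slc11a2 and Slc40a1 are at 0 in the 11 other cells.

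Hmox1 (ENSMUSG00000005413, chr8:75093621-75100589, plus strand) encodes heme oxygenase 1, the inducible enzyme that opens the heme ring and releases its iron. It was present in 7 of 31 cells (22.6%, interval 9.59% to 41.1%) and in 6 of 20 Lyz2-high cells (30%). The 6 values were 2362 FPKM in cell C8, 1704 in B9, 1556 in A12, 276.27 in A10, 213.44 in C6 and 9.09 in G8. The seventh cell was the low-coding E5, at 11.09 FPKM from 2 expected counts. Thus 3 cells were above 1500 FPKM, 14 of the 20 Lyz2-high cells were at 0, and the mean of 306 FPKM ranks Hmox1 545 among all rows.

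Of the 6 Lyz2-high cells with Hmox1, 5 had Hp and Ly6c2, and the sixth, C6, had C1qb. Ferritin levels overlapped widely between the cells with and without Hmox1. Fth1 ran from 8349 to 44907 FPKM in the 6 and from 4175 to 45419 FPKM in the 14. For Ftl1, the range was 10833 to 22347 FPKM in the 6 and 6477 to 24393 FPKM in the 14. Total counts ran from 521492 to 2701940 in the 6 cells with Hmox1 and from 767318 to 4059830 in the 14 others. Their medians were 1276320 and 1745190, and the part of depth was not tested. Median Lyz2 levels were 30689 FPKM with Hmox1 and 17840 FPKM without.

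Hp (ENSMUSG00000031722, chr8:109575128-109579172, minus strand) encodes haptoglobin, the plasma protein that binds free hemoglobin, made chiefly by the liver and also by myeloid cells. It was present in 12 of 20 Lyz2-high cells (60.0%, interval 36.1% to 80.9%) and in 0 of the 11 others. The 12 values ran from 48.21 FPKM in cell A12 through a median of 674 to 1608 FPKM in cell A10, from 151 to 4373 expected counts. Cell H5 had 0.22 FPKM from 1 expected count and was not called, and the other 7 were at 0. Hp ranked 419 by mean level, with a mean of 424 FPKM. The 4 hepatocyte-type plasma protein genes Alb, Ttr, Apoa1 and Serpina1a were present in no cell.

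At the limit of 1 FPKM, Hp went with the monocyte gene Ly6c2 and was not found with the complement gene C1qb. Of the 12 Lyz2-high cells with Hp, 10 had Ly6c2, at 48.64 to 7311 FPKM, and no Lyz2-high cell had Ly6c2 without Hp. The share of all rows that overlap with Hp in this way was not counted, so this overlap is a description only. The 2 with Hp alone were F10 and C11. C1qb was present in 6 Lyz2-high cells, B4, C6, C7, F1, H5 and H8, at 3729 to 13306 FPKM, and in none of the 12 with Hp, where it was at most 0.63 FPKM. With 1 expected count as the limit, 3 of the 20 cells (15%) held both genes: F10 and H4 with 1 and 2 counts of C1qb, and H5 with 1 count of Hp. Among rows present in some Lyz2-high cell, 0.157% were found in 10 or more of these cells and in no cell with C1qb. Cells D4 and D6 had neither gene. The alveolar macrophage markers summed to at most 39.1 FPKM in the cells with Hp and 0 in those with C1qb. Their highest sum in a Lyz2-high cell, 4258 FPKM, was thus in D4 or D6. The Spearman correlation over the 20 cells was 0.78 for Hp with Ly6c2 and -0.52 for Hp with C1qb. Median total counts were 1233770 in the cells with Hp and 1873230 in those without, with ranges of 521492 to 3526670 and 767318 to 4059830. The part of depth was not tested.

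**Figure D4:**
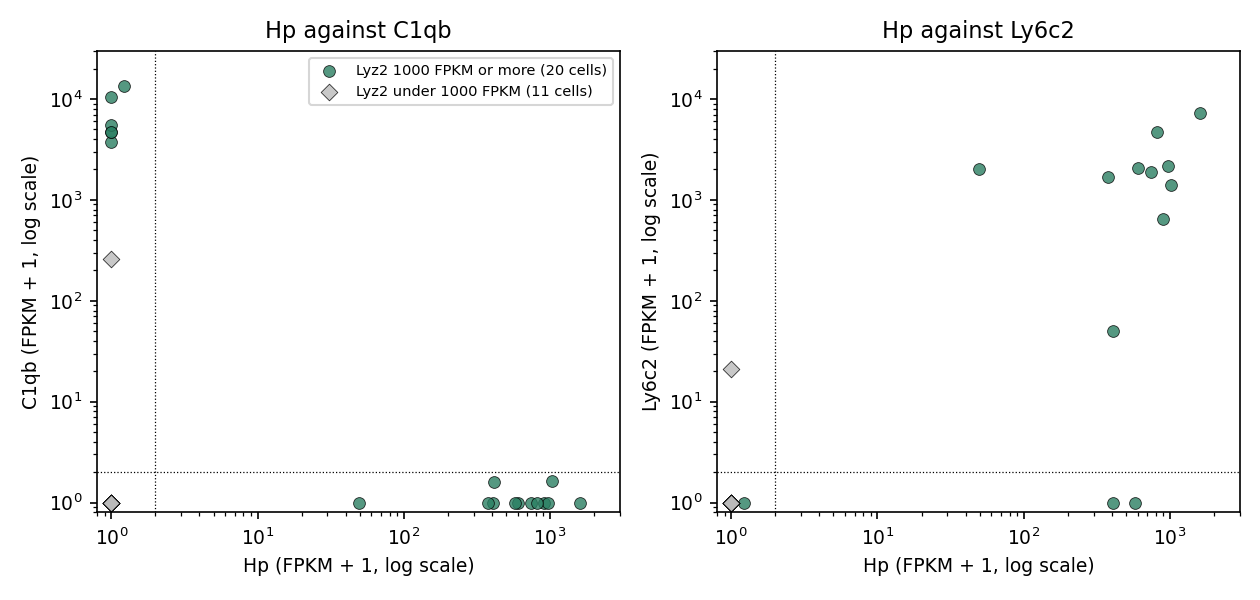
C1qb (left) and Ly6c2 (right) against Hp, as FPKM + 1 on log axes, 1 point per cell, with dotted lines at the limit for presence (1 FPKM). No cell is past both limits on the left, and 10 Lyz2-high cells are past both on the right.

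H2-Aa followed this division in part. It was present in 5 of the 12 cells with Hp, at 1.5 to 12594 FPKM, and in all 8 Lyz2-high cells without Hp. Its median was 0.33 FPKM in the cells with Hp and 15676 FPKM in the 6 with C1qb. The Spearman correlation of H2-Aa with Hp over the 20 cells was -0.71. Neutrophils also make haptoglobin, and some of their genes were found beside Hp. Of 10 neutrophil genes, S100a8 was present in 3 cells with Hp (up to 1594 FPKM), Ly6g in 7 (up to 115 FPKM) and Ngp in 1, with S100a9, Retnlg, Ltf, Lcn2, Camp, Mpo and Elane at 0 in all 12. The summed level of the list was 0 to 1594 FPKM in the cells with Hp, with a median of 13.4, and 0 in the cells with C1qb. The 10 marker genes of classical monocytes, a list that includes Hp itself, summed to 8933 to 26710 FPKM in the cells with Hp and 8.68 to 811 FPKM in those with C1qb. For 7 marker genes of nonclassical monocytes the sums were 58.8 to 5354 FPKM and 2.65 to 1334 FPKM, with medians of 2556 and 383 FPKM. None of the 9 erythroid genes, Hba-a1 among them, was present in any cell.

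Ferritin was high on both sides of this division. In the 12 cells with Hp, Fth1 ran from 8349 to 44907 FPKM with a median of 22415, and in the 6 cells with C1qb from 4175 to 31221 FPKM with a median of 15179.7. For Ftl1 the medians were 13710.4 and 14578 FPKM. Fth1 exceeded Ftl1 in 10 of the 12 cells with Hp and in 4 of the 6 with C1qb. The ranges overlapped for both genes and for their ratio.

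The other genes of the pathway were read from lists by function. Among 20 further genes of iron transport and storage, 12 were present in some Lyz2-high cell and 4 in at least 50% of them. The iron chaperones Pcbp2 and Pcbp1, which load ferritin, were present in 17 and 14 of the 20 cells, with medians of 60.5 and 77.6 FPKM. Cybrd1, a ferric reductase, was in 14 cells but at a median of only 1.61 FPKM. It was higher in the 10 low-coding libraries, where it was present in all 10 with a median of 151 FPKM, so its presence moved with the coding share. The iron-sulfur scaffold gene Iscu was in 9 cells. Tfr2, Steap4, Slc39a14, Slc39a8, Ftmt, Heph, Hamp and Lcn2 were present in none of the 20. This allows a share of up to 15% of such cells each (3 divided by the number of cells), or 16.8% by the exact interval.

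Trf, the gene of transferrin, was present in 9 Lyz2-high cells. It was found in 6 of 6 cells with C1qb, at 15 to 1335 FPKM, as were 3.09% of the rows present in some Lyz2-high cell. It was found in 3 of 12 cells with Hp: C11 at 592 FPKM, B7 at 144 and A12 at 138. Of the 3 iron-sensing genes, Fbxl5, which removes iron regulatory protein 2 when iron is plentiful, was present in 11 of 20 cells with a median of 13.7 FPKM. Ireb2, which encodes that protein, was in 3 cells, and Aco1, which encodes iron regulatory protein 1, in none.

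Among 14 further genes of heme handling, 9 were present in some Lyz2-high cell and 0 in at least 50%. Lrp1, a receptor for heme bound to hemopexin, led with 9 cells, followed by the constitutive heme oxygenase Hmox2 with 6, the heme-binding Pgrmc1 with 5 and the heme-sensing repressor Bach1 with 5. Flvcr1, Flvcr2, Cd163, Hpx and Slc46a1 were present in none. Cd163 encodes the receptor for the complex of haptoglobin and hemoglobin, so its receptor was not detected in any Lyz2-high cell, whether or not Hp was present. Of 9 genes of heme synthesis, 6 were present in some cell and 0 in at least 50%, with Alas1, the first enzyme of the path, in 5 cells and Cpox in 4, and Alas2, Alad and Uros in none.

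Blvrb, which encodes biliverdin reductase B, was singled out after its values were seen. It was present in 4 of the 6 cells with C1qb, at 1147 FPKM in B4, 983 in F1, 378 in C6 and 324 in H5, and in none of the other 14 Lyz2-high cells. Among 10818 rows present in some Lyz2-high cell, 0.166% were found in 4 or more cells with C1qb and in no other. Only in C6 did Blvrb meet Hmox1. Blvra, the other biliverdin reductase, was present in B4, C6 and B7 at 469, 394 and 62.1 FPKM, and Hmox2 in A10, B4, A12, C11, C6 and D6 at 124 to 872 FPKM. Cell C6 alone had Hmox1, Hmox2, Blvra and Blvrb together.

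Nrf2 is a regulator of the response to oxidative stress, and its textbook targets include Hmox1 and the ferritin genes. Of 12 further genes of this group, Nrf2 and its regulator Keap1 among them, 9 were present in some Lyz2-high cell and 6 in at least 50%. Nfe2l2, which encodes Nrf2, and the peroxiredoxin gene Prdx1 were each in 17 cells, with medians of 345 and 906 FPKM. Txn1 was in 16 and Sqstm1 in 15, with medians of 310 and 500.2 FPKM, while Txnrd1 was in 11, Slc7a11 in 9 and Gclm in 5. Keap1, Nqo1 and Gclc were present in none. Gsr, the glutathione reductase gene, was present in 12 of 12 cells with Hp, at 14 to 1049.5 FPKM, and was at 0 in the other 8. Among 10818 rows only 2, or 0.0185%, had this pattern, and they were Gsr and Hp itself.

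**Figure D5:**
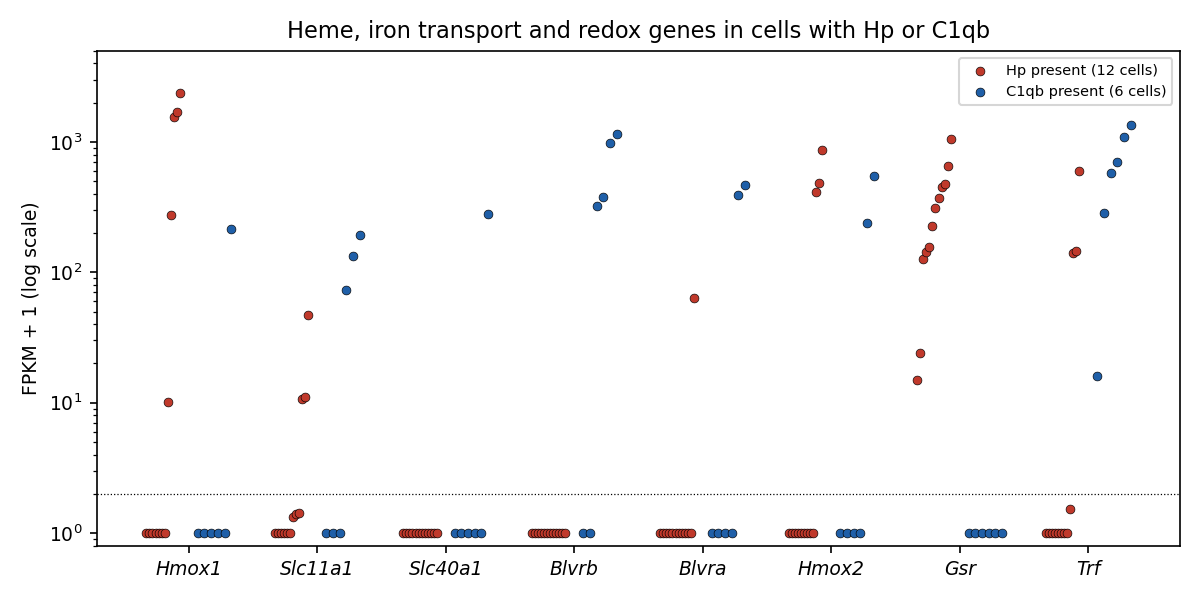
FPKM + 1 on a log axis of 8 heme, iron transport and redox genes in the 12 Lyz2-high cells with Hp and the 6 with C1qb, 1 point per cell, with the dotted line at 1 FPKM. Gsr is past the line in 12 of 12 cells with Hp and 0 of 6 with C1qb, and Blvrb in 0 of 12 and 4 of 6.

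The genes whose levels were most like each leading member were ranked by Spearman correlation over the 20 Lyz2-high cells, among 1424 genes present in at least 10 of them. Hp had the closest partners, Mgst1 at 0.84, Prdx5 at 0.82, Fn1 at 0.82, Gsr at 0.80 and Rab8b at 0.78, and 46 genes reached 0.6. The lowest were Apoe at -0.76, Cd86 at -0.72 and H2-Aa at -0.71. For Fth1 the leading genes were Ptgs2 at 0.75, Coq10b at 0.65, Dync1i2 at 0.64, Frg1 at 0.61 and Rps2 at 0.60. For Hmox1 they were Prdx1 at 0.65, BC028528 at 0.64, Prcp at 0.63, Cd47 at 0.62 and Akap13 at 0.62. Slc11a1 was led by Plekho2 at 0.71, Dnaja1 at 0.63, Nlrc3 at 0.62, Snf8 at 0.62 and Fam117b at 0.58, and Ftl1 by Nedd8 at 0.66, Ube2n at 0.60, Ndufa2 at 0.58, Chkb at 0.55 and Jpt1 at 0.53. With 20 cells of 1 sample and counts at 0 in many of them, these are the highest of many coefficients, and most of the names changed with the measure used. Slc40a1, present in 1 cell, was not ranked.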

How the data were processed

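For each gene and cell the authors used RSEM to make expected counts, estimated counts that need not be whole, and these were deposited, per the file headers. The FPKM values the authors deposited are named as such in the labels and are scaled for transcript length and library size by definition. The submitters' processing notes name Trimmomatic, RSEM, CASAVA 1.8 and the GRCm38 build; aligner, annotation release and cell filters are not stated there. Another 44 columns of the count table match no label and were not used. Libraries were made from SMARTer cDNA with Nextera XT, per the labels' protocols, kits that mark no strand and add no molecular identifiers.

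Symbols came from GENCODE M21 by Ensembl ID (46488 of 47069 rows matched; rows without a symbol held 0.274% of counts). Presence (1 FPKM), shares with exact 95% intervals, co-detection and Spearman correlations were computed in Python 3.11.15 with pandas 2.3.3 and scipy 1.17.1. The likeness ranking and thinning were tested on simulated data. The highest Pearson correlation between any 2 libraries was 0.90, so no library was counted as a repeat.

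Members and lists were chosen with earlier results of these data known. Named were the members, list genes in at least 75% or none of the Lyz2-high cells plus up to 4 more per list, ferritin-like rows above 1 FPKM, and the 5 genes most like each leading member. Blvra, Blvrb and the comparison of cells with Hp and with C1qb were added after values were seen. Alternatives changed the limit for presence, the Lyz2 limit, the set of libraries, the depth (thinning to 120829 counts per cell) and the likeness measure. Protein sequences are not used here. The values of 1 gene of the iron transport list are not reported here.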

Additional observations from a re-analysis of the deposited data

How the results depend on the processing

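No paired analysis was possible because there is 1 group, and no result comes from a test. The number of Lyz2-high cells moved under 0 of 3 alternatives, median levels under 0 of 36, presence over 31 cells under 3 of 54, presence in Lyz2-high cells under 1 of 63, co-detection under 1 of 56, list counts under 6 of 30 and likeness under 27 of 30, where moved means outside the exact interval of a share, more than 1 SD over cells for a median, or more than 1.5 times for a count. These bounds are wide: the median of Hp in Lyz2-high cells was 391 FPKM and became 0.22 FPKM with Lyz2 at 100 FPKM or more, within 1 SD. With 1 expected count as the limit, Lyz2-high cells with Hp and C1qb went from 0% to 15%. With only libraries of 80% coding counts or more, Fth1 and Ftl1 were each present in 100% of cells and 1 iron-sensing gene was in at least 50% of cells (0 over all 31). With a limit of 50 FPKM, Slc11a1 was present in 16.1% of 31 cells and Slc11a1 met Hp in 0% of Lyz2-high cells. With Lyz2 at 10000 FPKM or more, Slc40a1 was present in 0%, since F1 is left out. Over all 31 cells, 3 genes of iron transport and storage were in at least 50% of cells, against 1 at 5 FPKM and 0 at 50 FPKM; heme handling went from 0 to 1 with an expected count of 1 or of 10 as the limit, and heme synthesis from 0 to 1 with a count of 1. Of each member's 5 most similar genes, Pearson correlations of log2(FPKM + 1), + 0.1 and + 10 kept 1, 1 and 1 for Fth1, 3, 3 and 3 for Ftl1, 3, 2 and 1 for Hmox1, 2, 3 and 1 for Slc11a1 and 3, 3 and 2 for Hp. All 31 cells kept 1, 1, 3, 2 and 3, in that order of genes. Searching genes in at least 3 cells kept 3 for Fth1, 0 for Ftl1, 0 for Hmox1 and 1 for Slc11a1, and thinned counts kept 1 for Fth1, 2 for Ftl1 and 3 for Slc11a1. The cause of these changes was not tested. The number of cells limits what can be said of rare genes. A gene found in 0 of 20 cells may be detectable in as many as 15% of such cells, or 16.8% by the exact interval. The 15% is 3 divided by the number of cells. For 0 of 31 cells the same bounds are 9.68% and 11.2%. All are for detection and not for expression, and the part of depth was not tested. With counts thinned to 120829 per cell, Tfrc and Slc40a1 stayed at 3.23% of the 31 cells and Hmox1 at 22.6%. Ncoa4 went from 12.9% to 9.68% and Slc11a2 from 9.68% to 6.45%.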
